A study of Mus musculus with 8 samples.

Results

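The Dock guanine nucleotide exchange factors described here are 9 genes, Dock1, Dock2, Dock4, Dock5, Dock6, Dock8, Dock9, Dock10 and Dock11, of 55376 in the count table. They are a set of named genes that was chosen with their PM and PH levels known. Dock3 is no member and is given beside them as another gene of the family. The RNA came from mouse bone marrow dendritic cells (BMDCs), which take up microbes and present antigens to T cells. The cells had been kept overnight with heat-inactivated bacteria, Prevotella melaninogenica (PM, 3 samples) or Prevotella heparinolytica (PH, 3 samples). Each treatment holds the sample ids 1, 3 and 4, used here as replicate names. Strain, genotype and age of the mice are not given in the labels, nor whether the ids are animals or cultures. Untreated cells were not analysed here. A difference therefore sets PM against PH alone, and neither against untreated cells.

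Dock proteins switch on small GTPases such as Rac and Cdc42, which set the growth of actin filaments during migration, engulfment and contact with T cells. A DHR-2 domain loads the GTPase with GTP, and a DHR-1 domain binds phosphoinositides at the membrane. Subfamily A (Dock1, Dock2, Dock5) and subfamily B (Dock3, Dock4) work with ELMO scaffolds and act on Rac. Members of subfamily C (here Dock6 and Dock8) act on Rac, Cdc42 or both, and subfamily D (Dock9, Dock10, Dock11) acts on Cdc42. In dendritic cells of mice, Dock2 and Dock8 are known for their part in migration.

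The sequences before the transcription start are shown for the 4 members with the highest level per length, as the stretch of DNA next to the RNA that was counted. Each is 250 bases long, ends at the base before the RefSeq start (GRCm38.p6) and is written 5′ to 3′ in the direction of the gene. CG dinucleotides, the sites of DNA methylation, are in capitals. The windows lie at chr1:80758554-80758803 on the minus strand for Dock10, chr11:34783906-34784155 on the minus strand for Dock2, chr19:24999279-24999528 on the plus strand for Dock8 and chrX:35888582-35888831 on the plus strand for Dock11.
Dock10: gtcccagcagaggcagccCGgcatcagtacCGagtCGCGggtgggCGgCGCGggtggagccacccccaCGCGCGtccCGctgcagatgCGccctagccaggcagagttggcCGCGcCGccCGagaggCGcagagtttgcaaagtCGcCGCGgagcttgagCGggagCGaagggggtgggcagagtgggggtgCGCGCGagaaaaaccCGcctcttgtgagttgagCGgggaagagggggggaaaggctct
Dock2: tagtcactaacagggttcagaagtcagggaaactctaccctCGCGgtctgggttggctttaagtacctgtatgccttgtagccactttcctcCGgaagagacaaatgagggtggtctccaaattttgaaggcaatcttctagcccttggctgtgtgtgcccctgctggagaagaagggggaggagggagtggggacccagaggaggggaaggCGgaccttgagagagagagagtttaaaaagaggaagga
Dock8: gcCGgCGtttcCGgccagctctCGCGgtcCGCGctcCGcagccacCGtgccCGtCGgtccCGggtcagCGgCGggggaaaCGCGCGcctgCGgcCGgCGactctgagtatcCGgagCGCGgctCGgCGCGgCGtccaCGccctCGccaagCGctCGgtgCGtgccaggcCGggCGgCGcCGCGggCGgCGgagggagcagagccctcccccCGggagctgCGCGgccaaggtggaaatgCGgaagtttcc
Dock11: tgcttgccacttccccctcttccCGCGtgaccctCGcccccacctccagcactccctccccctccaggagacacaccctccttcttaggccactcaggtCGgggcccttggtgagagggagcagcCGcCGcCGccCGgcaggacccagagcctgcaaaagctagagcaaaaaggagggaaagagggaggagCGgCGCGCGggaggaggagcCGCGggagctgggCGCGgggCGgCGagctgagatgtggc
The Dock8 window held 43 CG dinucleotides, that of Dock10 27, that of Dock11 18 and that of Dock2 4, beside a median of 6 over the 32851 windows of this length in the RefSeq table. The table matched 8 of the 9 members, with 11 windows, and not Dock5. Dock10 has a second window there, not shown, with 5 CG dinucleotides. Of the 11 windows, 8 had more CG dinucleotides than the median. The letters GAGGAA, a core bound by the myeloid factor PU.1, were searched on both strands and were in 3 of the 11 windows and in 23.3% of all; the Dock2 window held it 2 times. A match is a run of letters in the window and not a measured site.

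Totals lay between 11624367 counts (PH replicate 3) and 40233148 counts (PH replicate 4). The predicted gene Gm42418 stood at 4025 CPM, that is as counts relative to the TMM-scaled library size, in PH replicate 3, against 877 to 1495 CPM in the other 5 samples. Log2 fold changes of PM over PH without PH replicate 3 are given below for Dock2, Dock6, Dock8 and Dock9. For the other members they were -0.13 (Dock1), -0.21 (Dock4), -0.28 (Dock5), -0.20 (Dock10) and -0.26 (Dock11). Of 14382 genes with enough counts to test, 337 passed an adjusted p of 0.05 for PM against PH in edgeR's quasi-likelihood test, which is 2.34% of them. All 9 members passed the filter on low counts, with 171 to 8043 counts per sample. Of 10 dendritic cell markers 9 passed it, and Cd209a had 0 counts in each sample. Of 7 macrophage markers 6 passed it too, so these lists do not by themselves settle the cell type.

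The Dock genes were, for the greater part, somewhat lower in PM cells than in PH cells, by no more than 0.30 on the log2 scale. Of the 9 members, 8 had a negative log2 fold change of PM over PH, and the median was -0.22, beside 0.01 over the 14382 genes tested. The members were chosen by their PM and PH levels, that is with this contrast known, so their differences are a description and carry no test. In 7 of the 9, PM was lower than PH in each of the 3 pairs of samples with the same id, as was the case for 22.0% of all genes tested. In 6 of the 9, every PM sample lay below every PH sample, beside 9.28% of all genes tested. By edgeR with no block, 0 members were called and 5 had an unadjusted p under 0.05, as had 13.1% of all genes tested; DESeq2's Wald test also called 0. With the sample id as a block, edgeR called 5 (Dock4, Dock5, Dock8, Dock10 and Dock11), all lower in PM. That fit called 15.3% of all genes in either direction, 8.27% lower, and 10.9% lower among genes with a mean of at least 10 CPM. Because the choice used this contrast, nothing is read from these counts.

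**Figure D1:**
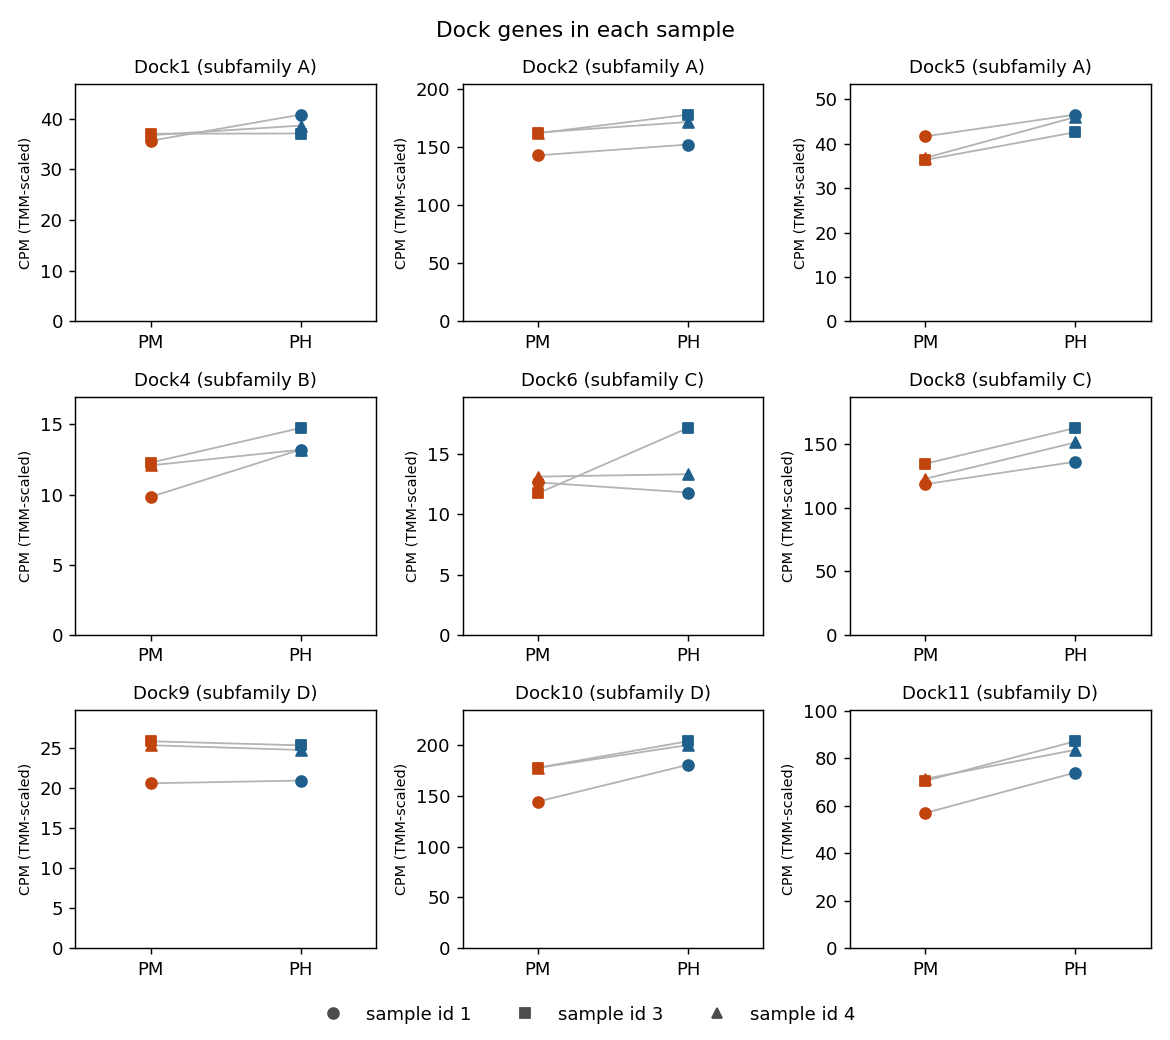
Level of each of the 9 Dock genes in each of the 6 samples, in CPM scaled by TMM on a linear axis that starts at 0, with PM left of PH and a grey line between samples of the same id. Most lines climb toward PH, the lines of Dock9 are nearly flat, and the line of id 3 for Dock6 is the steepest of its panel.

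Subfamily A activates Rac. Dock2, the member known from lymphocytes and other blood cells (chromosome 11, 34226815 to 34783892, minus strand, GRCm38), had 143, 162 and 162.5 CPM in PM replicates 1, 3 and 4, against 152, 178 and 172 CPM in PH replicates 1, 3 and 4. Each PM sample was below the PH sample of its id, and the treatments overlapped. The log2 fold change was -0.10 ± 0.08 (SE), with means of 155.8 ± 11.2 CPM in PM and 167 ± 13.4 CPM in PH (SD, n = 3 each). This was -0.05 without PM replicate 1, -0.17 without PH replicate 1 and -0.06 without PH replicate 3.

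Dock5, which activates Rac in bone-resorbing osteoclasts (chromosome 14, 67752135 to 67933432, minus strand), had 41.7, 36.4 and 36.8 CPM in the PM samples, against 46.6, 42.6 and 46.0 CPM in the PH samples. The highest PM sample stayed below the lowest PH sample, and the log2 fold change was -0.24 ± 0.07 (SE). Dock1, the partner of Elmo1 in the uptake of dying cells (chromosome 7, 134670687 to 135173639, plus strand), had 35.7, 37.1 and 36.8 CPM in PM cells, against 40.8, 37.1 and 38.7 CPM in PH cells. The samples of id 3 differed by 0.0017 on the log2 scale, so the treatments parted by next to nothing, and the log2 fold change was -0.09 ± 0.06 (SE).

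Dock4, the tested member of subfamily B, acts on Rac and also on Rap1 (chromosome 12, 40445952 to 40846874, plus strand). It had 9.83, 12.3 and 12.1 CPM in PM cells, against 13.2, 14.8 and 13.2 CPM in PH cells. PM replicate 1 was the lowest sample and no PM sample reached a PH sample. The log2 difference was -0.25 ± 0.11 (SE), and -0.17 without PM replicate 1. Dock3, known from the brain, was not tested: it had 16 counts over the 6 samples, and 12.9% of its exon bases overlap other genes. No member shares exon bases with another gene.

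In subfamily C, Dock8 and Dock6 differed in how steady the difference was. Dock8, whose loss causes a combined immunodeficiency in humans (chromosome 19, 24999534 to 25202432, plus strand), had 119, 135 and 123 CPM in PM cells, against 136, 163 and 151.5 CPM in PH cells. The PM samples all lay below the PH samples, though PM replicate 3 came close to PH replicate 1. The log2 fold change was -0.26 ± 0.08 (SE), -0.33 without PH replicate 1 and -0.21 without PH replicate 3.

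Dock6, which acts on Rac1 and Cdc42 (chromosome 9, 21799860 to 21852635, minus strand), had 12.6, 11.7 and 13.1 CPM in PM cells, against 11.8, 17.2 and 13.3 CPM in PH cells. PH replicate 3, the shallowest sample, stood above the other 5, which ranged together. The log2 fold change of -0.15 ± 0.13 (SE) became -0.02 without PH replicate 3 and -0.27 without PH replicate 1.

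Subfamily D held the member with the largest difference and a member whose log2 fold change was near 0. Dock11, a Cdc42 activator also called zizimin2 (chromosome X, 35888832 to 36076562, plus strand), had 57.0, 70.5 and 71.4 CPM in PM cells, against 74.0, 87.2 and 83.6 CPM in PH cells. Its PM samples all lay below its PH samples, and PM replicate 1 was the lowest. The log2 fold change was -0.30 ± 0.10 (SE), a ratio of 0.815, and -0.21 without PM replicate 1. Of all genes tested, 18.1% had a log2 fold change of larger size than that of Dock11.

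Dock10, which acts on Cdc42 and Rac (chromosome 1, 80501073 to 80758448, minus strand), had 144, 178 and 177.5 CPM in PM cells, against 180.5, 204 and 200.0 CPM in PH cells. All PM samples were below all PH samples, with PM replicate 1 far under the other two. On the log2 scale PM differed by -0.22 ± 0.09 (SE), and -0.14 without PM replicate 1. Dock9, the Cdc42 activator also called zizimin1 (chromosome 14, 121542046 to 121797837, minus strand), had 20.6, 25.9 and 25.4 CPM in PM cells, against 20.96, 25.4 and 24.8 CPM in PH cells. Its values followed the id and not the treatment: id 1 was low in both. Its log2 fold change was 0.02 ± 0.11 (SE), -0.07 without PH replicate 1, 0.06 without PH replicate 3 and 0.11 without PM replicate 1.

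**Figure D2:**
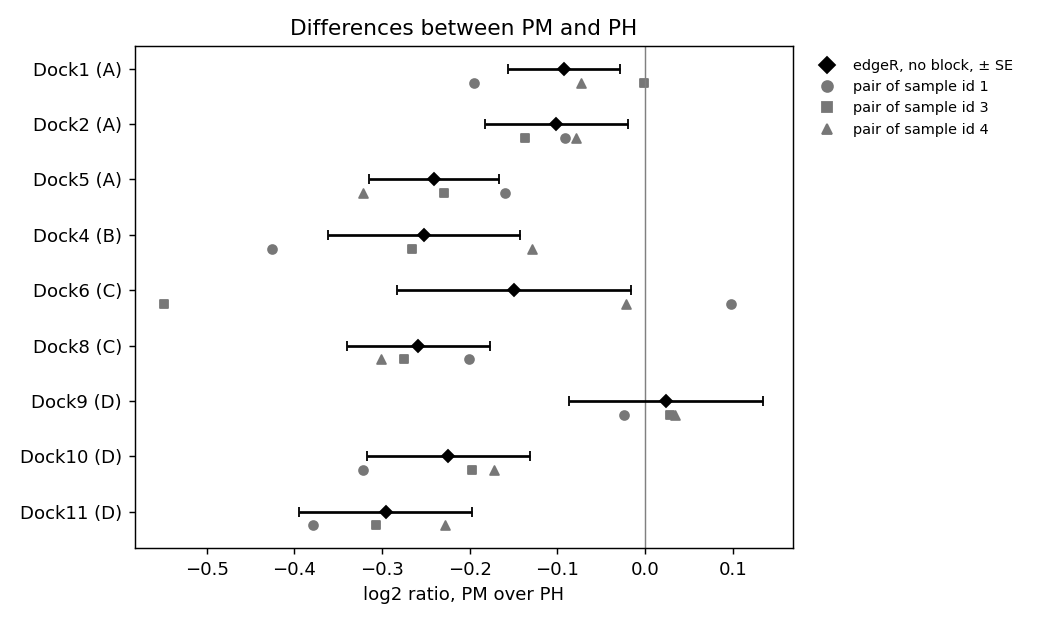
Log2 ratio of PM over PH for the 9 members, with the subfamily in brackets; diamonds are edgeR's log2 fold change without a block with bars of 1 SE, and grey symbols are the ratios within each sample id. The fold changes run down to -0.30 for Dock11; the pairs of Dock6 are the most spread and those of Dock9 lie at the zero line.

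Ratios of raw counts within a sample need no scaling between libraries. Set against Dock2, Dock11 counts were 0.399, 0.436 and 0.439 in the PM samples, against 0.487, 0.490 and 0.487 in the PH samples. The PH ratios were nearly equal, and the PM ratios lay below each of them. Dock8 counts were 0.806 ± 0.0430 of those of Dock2 in PM cells and 0.898 ± 0.0165 in PH cells (SD, n = 3 each), again with no overlap. For Dock10 and Dock4, too, the ratio to Dock2 was lower in every PM sample than in every PH sample. Dock4, Dock8, Dock10 and Dock11 were lower relative to Dock2 in PM, whatever the scaling. The ratios of Dock1, Dock5, Dock6 and Dock9 overlapped between the treatments. The members were chosen with this contrast known, so these ratios are a description and carry no test. The share of all genes tested whose ratio to Dock2 parts the treatments was not computed. Whether such a parting is particular to these members is therefore not known.

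Levels between genes were compared per length, as RPKM (TMM-scaled CPM per kilobase of the table's exon length). Dock10 was the highest at 24.2 RPKM over the 6 samples (19.3 to 27.3), followed by Dock2 at 21.3 (18.8 to 23.5) and Dock8 at 17.7 (15.2 to 20.9). Dock11 had 11.0 RPKM, Dock1 5.27, Dock5 4.17, Dock9 2.69, Dock6 1.93 and Dock4 1.47. Within each of the 6 samples, each gene was above the next. Over samples, the ranges of Dock10 and Dock2 overlapped, as did those of Dock2 and Dock8, of Dock9 and Dock6, and of Dock6 and Dock4; the other neighbours were apart. The level of Dock10 was above that of 80.5% of the genes tested and that of Dock4 above 27.2%.

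Summed over the 9 members, the level was 83.5 ± 6.30 RPKM in PM cells and 95.8 ± 6.39 RPKM in PH cells (SD, n = 3 each). The samples were at 76.3, 87.8 and 86.6 RPKM in PM, against 88.7, 101 and 97.5 RPKM in PH. PM stayed below PH with a narrow gap between PM replicate 3 and PH replicate 1. Subfamily D alone summed to 30.1, 37.2 and 37.2 RPKM in PM cells, against 37.5, 43.1 and 42.0 RPKM in PH cells.

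**Figure D3:**
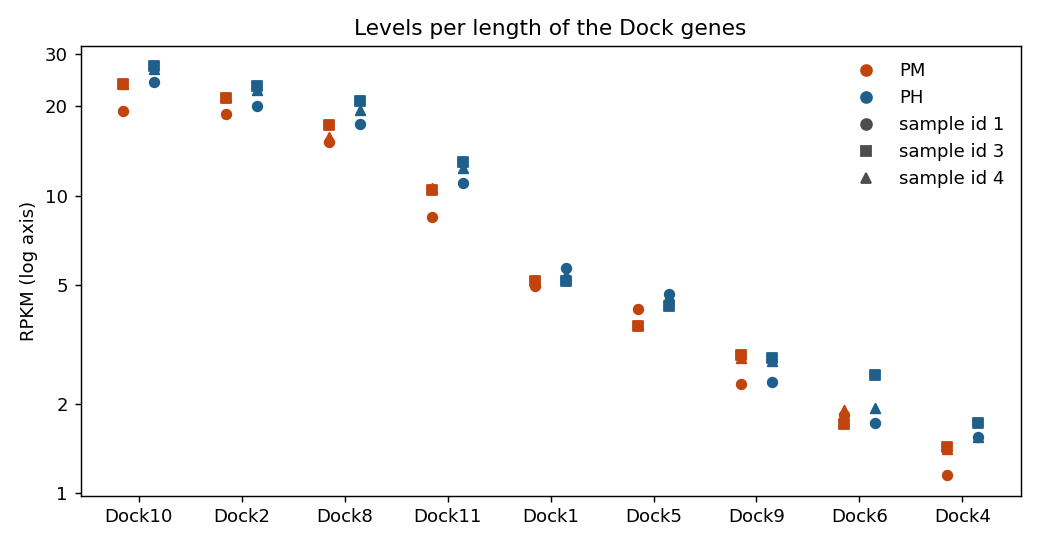
Level per length of the 9 members in each sample, in RPKM on a log axis, ordered by mean, with PM left of PH and the symbol giving the sample id. Dock10, Dock2, Dock8 and Dock11 lie near or above 10 RPKM, and the other 5 lie below 6 RPKM.

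Fewer cells of a type and less RNA per cell cannot be told apart in these bulk samples. The 10 dendritic markers, 9 of them tested, summed to 8750 to 10400 CPM in PM cells and 8970 to 10900 CPM in PH cells, and with the block 2 of the 9 (Irf4 and Irf8) were lower in PM. The 9 neutrophil markers, 8 tested, summed to 364 to 507 CPM in PM cells and 478 to 594 CPM in PH cells, with 1 of the 8 (Csf3r) lower in PM, and 4 with the block (Csf3r, S100a8, S100a9 and Camp). The 4 NK cell markers, of which 3 were under 1 CPM, summed to 3.03 to 3.90 CPM in PM cells and 4.43 to 7.21 CPM in PH cells, with 1 (Gzma) lower with the block. The 7 macrophage markers summed to 1220 to 1700 CPM in PM cells and 1070 to 1530 CPM in PH cells; with the block Cd68 was among those higher in PM, and Fcgr1 was lower. The 7 stromal markers summed to 87.4 to 149 CPM in PM cells and 78.7 to 167 CPM in PH cells, with 1 of 7 lower in PM with and without the block: Pdgfrb, at a log2 fold change of -0.70. These markers are named after their values were seen. The part of these in the Dock values was not tested.

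Whether a gene differs between the sample ids is a question the choice of members did not use. In edgeR's test of the id with treatment in the model, 5 of the 9 members passed, beside 18.9% of all genes tested and 24.9% of those with a mean of at least 10 CPM. The adjusted p was 0.00404 for Dock11, 0.00449 for Dock10, 0.0166 for Dock9, 0.0184 for Dock2 and 0.0222 for Dock8. All 5 were lower in id 1 than in the mean of ids 3 and 4, in both treatments. On the log2 scale the difference of id 1 was -0.32 in PM and -0.21 in PH for Dock11, -0.30 and -0.16 for Dock10, and -0.31 and -0.26 for Dock9. For Dock2 it was -0.18 in PM and -0.20 in PH, and for Dock8 -0.12 and -0.21. Dock1, Dock4, Dock5 and Dock6 did not pass, with adjusted p of 0.295 to 0.951 by edgeR.

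**Figure D4:**
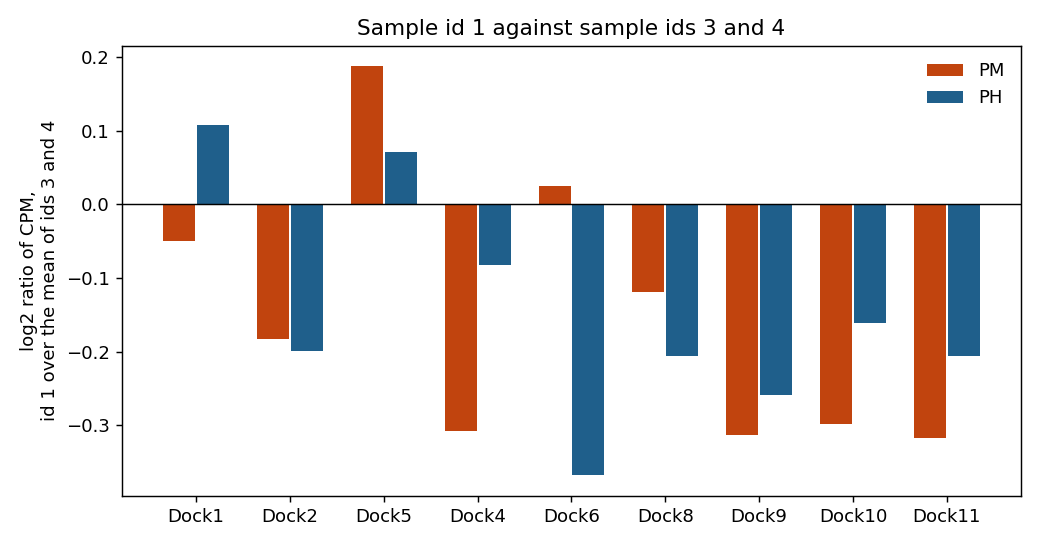
Log2 ratio of the CPM in sample id 1 over the mean of ids 3 and 4, for the 9 members, with PM bars left of PH bars. Dock2, Dock8, Dock9, Dock10 and Dock11, the genes that passed the test of the id, are lower in id 1 with both bacteria, as is Dock4, which did not pass.

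The count of 5 rests on id 1: without it edgeR called 0 members between ids 3 and 4, with 1 at an unadjusted p under 0.05. Without id 3 it called 3, and without id 4 it called 5. DESeq2's likelihood ratio test called Dock10 and Dock11 alone. Markers of several cell types differed with the id too, though not every list did. The neutrophil markers overlapped, with sums of 507 to 594 CPM in id 1 and 364 to 576 CPM in ids 3 and 4. Of them 5 of 8 passed the test of the id. Of the endothelial markers 1 of 4 passed, of the mast cell markers 1 of 5, and of the NK and erythroid markers 0 of 2 each. The dendritic markers summed to 8750 to 8970 CPM in id 1, against 9830 to 10900 CPM in ids 3 and 4, and 7 of 9 passed the test of the id. Ccr7 and Cd74 weigh most in this sum, with means of 3907 and 3814 CPM in PM cells. Of the 7, Itgax alone was higher in id 1. It had 177.5 CPM there in PM cells, against 139 and 166 CPM in ids 3 and 4. In PH cells it had 165 CPM, against 133 and 158 CPM. The macrophage markers summed to 1530 to 1700 CPM in id 1, against 1070 to 1240 CPM in the others, with 3 of 6 passing. The B cell markers summed to 18.1 to 22.1 CPM in id 1, against 9.58 to 11.7 CPM, with 5 of 5 passing; the T cell markers to 16.7 to 16.9 CPM, against 23.1 to 27.6 CPM, with 4 of 7; and the stromal markers to 78.7 to 87.4 CPM, against 114 to 167 CPM, with 4 of 7. Their part in the Dock values was not tested.

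The genes that Dock proteins act with are given by list. Counts below are of genes passing edgeR's test over all genes, higher and lower in PM, where 0.702% and 1.64% of all genes passed, and with the block 7.00% and 8.27%. An unadjusted p under 0.05 without the block was reached by 13.1% of all genes. Of 12 scaffolds, adaptors and other partners, 0 passed and 1 had an unadjusted p under 0.05, with a median log2 fold change of -0.06. DESeq2's Wald test also called 0. The scaffold Elmo1, which binds Dock1, Dock2 and Dock5, had 44.9, 55.8 and 54.6 CPM in PM cells, against 61.2, 65.5 and 65.9 CPM in PH cells. Its samples did not overlap; on the log2 scale they differed by -0.31 ± 0.09 (SE), and edgeR gave adjusted p = 0.135 and, with the block, 9.92e-05. Lrch1, a Dock8-binding protein, averaged 41.6 ± 2.02 CPM in PM cells and 45.3 ± 1.56 CPM in PH cells (SD, n = 3 each), with adjusted p = 0.479 by edgeR. With the block, 1 partner was higher and 1 lower.

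Dock proteins are held at membranes by phosphoinositides and phosphatidic acid. Of 15 genes for PI3-kinase subunits and adaptors, lipid phosphatases and the phospholipase D family, 1 fell and 0 rose, with a median of -0.07. Pik3cd, the catalytic subunit of PI3-kinase delta in leukocytes, had 113, 101 and 106 CPM in PM cells, against 134, 134 and 137 CPM in PH cells. The treatments were well apart, with a log2 difference of -0.34 ± 0.06 (SE), and edgeR gave adjusted p = 0.0243. It passed without PM replicate 1, and had adjusted p of 0.0633 to 0.146 when PM replicate 3, PM replicate 4, PH replicate 1, PH replicate 3 or PH replicate 4 was left out. With the block, 2 of the 15 rose and 3 fell. Those that rose, named after their values were seen, were Pld3 and Pld4, known as lysosomal exonucleases.

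Of 23 small GTPases of the Rac, Cdc42 and Rap kind and their relatives, 1 fell and 0 rose, with a median of -0.05. Rnd1, a small GTPase that stays bound to GTP and is not loaded by exchange factors, had 18.1, 10.8 and 12.0 CPM in PM cells, against 37.0, 25.5 and 32.2 CPM in PH cells. No PM sample came near a PH sample, with a log2 difference of -1.24 ± 0.20 (SE), for which edgeR gave adjusted p = 0.0133. It missed the threshold without PM replicate 3 (0.0606), PM replicate 4 (0.0833) or PH replicate 4 (0.0714). The substrates of the Dock proteins, named here for that role after their values were seen, did not pass. Rac1 averaged 356 ± 10.2 CPM in PM cells and 368 ± 15.4 CPM in PH cells, and Cdc42 averaged 704 ± 1.72 CPM in PM cells and 728 ± 19.6 CPM in PH cells (SD, n = 3 each). Rac2, the Rac of blood cells, averaged 291.5 ± 47.4 CPM in PM cells and 333 ± 37.0 CPM in PH cells, with a log2 fold change of -0.19 ± 0.12 (SE). With the block, 2 GTPases rose and 4 fell, Rac2 among those that fell.

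Of the exchange factors of the other large class, the Dbl type, 48 of 52 were tested; 0 passed and 5 had an unadjusted p under 0.05, with a median of 0.00. Prex1, a Rac activator of leukocytes, was at -0.26 ± 0.08 (SE) on the log2 scale; edgeR gave adjusted p = 0.192 and, with the block, 6.73e-05. Itsn2, a Cdc42 activator, was at -0.16, with adjusted p = 0.250 by edgeR and 0.0210 with the block. Of the proteins that switch these GTPases off or hold them in the cytosol, 45 of 47 were tested; 0 passed and 10 had an unadjusted p under 0.05, with a median of -0.03. Arhgap24 differed by 0.53 ± 0.13 (SE, adjusted p = 0.0811 by edgeR, 0.000885 with the block). Arhgap25 differed by 0.34 ± 0.08 (SE, adjusted p = 0.0869, and 0.000149 with the block); both are GTPase-activating proteins for Rac. Of the actin machinery downstream of Rac and Cdc42, 43 of 46 were tested; 0 passed and 2 had an unadjusted p under 0.05, with a median of -0.03. Cyfip1, of the WAVE complex, was at -0.18 with adjusted p = 0.211 by edgeR and 0.00559 with the block. Cdc42bpa, a Cdc42-bound kinase, was at -0.17 with 0.297 by edgeR. DESeq2's Wald test called 0 in each of these 3 lists. With the block, 2 Dbl-type factors rose and 5 fell, 5 of the inactivating proteins rose and 8 fell, and 0 actin genes rose and 2 fell.

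**Figure D5:**
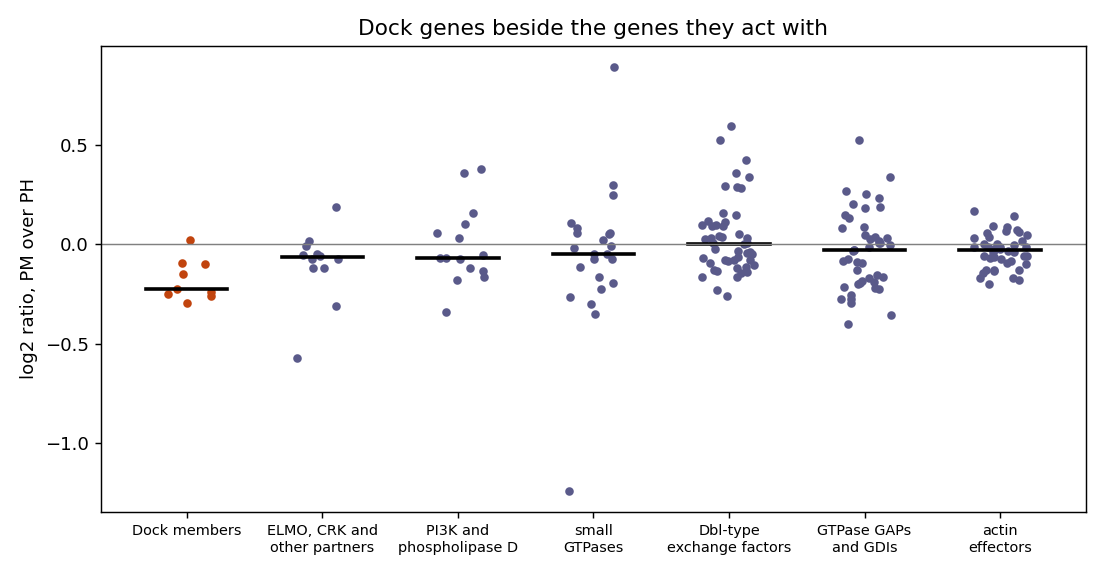
Log2 fold change of PM over PH for the 9 Dock members and for the tested genes of 6 lists of genes that act with them; each point is a gene and each bar the median of its list. The medians lie at -0.22 for the Dock members and between -0.07 and 0.00 for the lists; the lowest point is Rnd1 at -1.24.

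The genes whose pattern over the 6 samples was most like that of Dock11 were Pdzk1ip1, H2-Q4 and Pole. Their root mean square distances in log2 CPM, after each gene's mean was taken off, were 0.0177, 0.0290 and 0.0345, among 8759 genes with a mean of at least 10 CPM. H2-Q4 has near-identical relatives, so its counts are uncertain. For Dock9 the nearest were Pnpla2, Atmin and Golm1, at distances of 0.0152, 0.0173 and 0.0176.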

How the data were processed

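The authors deposited whole-number read counts per gene, with no scaling. The submitters' processing notes name Trimmomatic, featureCounts 1.6.4, STAR 2.5.3a and the build GRCm38; the labels' protocols name polyadenylated RNA and a kit that marks strand. Nothing in the labels states the annotation release, whether counting used strand, or how reads with several matches were treated. The series has 8 libraries for 6 count columns. The columns of PM replicate 1 and PH replicate 3 match 2 libraries each by name (run 1 and run 2), and nothing states whether both runs are in them. The chi-square per degree of freedom between columns was at least 5.10, above sampling noise.

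EdgeR 4.0.16 in R 4.3.3 was run on TMM-scaled counts after filterByExpr (minimum count 10), by the quasi-likelihood test with Benjamini-Hochberg adjustment over all 14382 genes and a threshold of 0.05. Sample ids were tested with treatment in the model. The p-values reflect only how far these samples vary, which may be technical. The test of PM against PH used no block. Pairing by id was checked for the blocked alternative: deviations from the treatment means correlated at 0.44, 0.32 and 0.24 for the 3 same-id pairs, against -0.35 to 0.07 for other pairs. By this check the ids pair the samples, from the counts and not from the labels. Alternatives were the block, DESeq2 1.42.0, other scalings and filters, and leaving out each sample. Promoter windows came from RefSeq, and figures were drawn with matplotlib 3.10.9. Figures of CPM and RPKM use edgeR's TMM-scaled library sizes.

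The members and lists were chosen with earlier results of these data known. Named were the 9 members and Dock3 (a further gene that the rule names is not reported here), up to 4 called genes per list and direction by smallest p (2 uncalled where none passed), and the 3 nearest profiles of the members with the highest and lowest fold change. Scripts were tested on simulated data.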

Additional observations from a re-analysis of the deposited data

How the results depend on the processing

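Dock1, Dock2, Dock4, Dock5, Dock8, Dock10 and Dock11 kept a negative log2 fold change of PM over PH in 15 of 15 alternatives. The alternatives refit the same 6 samples or some of them, and the members were chosen with this contrast known. The shared sign is therefore no independent support. Dock6 ranged between -0.27 and 0.02 and Dock9 between -0.07 and 0.11. Library totals in place of TMM moved the median of all genes to 0.03 and that of the members to -0.20. The cause of the changes below was not tested.

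The reported fold changes and calls come from the fit without pairing, unless the block is named. Fitted with a replicate block on the id, edgeR called 2197 genes and 5 members for PM against PH; by list the counts were 2 (partners), 5 (lipid genes), 6 (GTPases), 7 (Dbl-type factors), 13 (inactivating proteins) and 2 (actin). With the block and without 1 id, the counts were 2145 genes without id 1, 1580 without id 3 and 1529 without id 4, with ranges of 3 to 4 members, 1 to 3 partners, 3 to 5 lipid genes, 3 to 4 GTPases, 4 to 9 Dbl-type factors, 7 to 8 inactivating proteins and 1 to 5 actin genes.

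Without the filter on low counts edgeR called 846 genes, 2 members (Dock8 and Dock11), 1 partner, 2 lipid genes, 2 GTPases, 1 Dbl-type factor and 2 inactivating proteins. DESeq2's Wald test called 584 genes and 2 lipid genes, and its likelihood ratio test 1419 genes and 2 members between ids. Leaving out 1 sample gave 142 to 417 genes, 0 to 1 members (Dock5, without PM replicate 1), 0 to 1 lipid genes and 0 to 1 GTPases. Leaving out 1 id gave 525 to 2689 genes and 0 to 5 members between ids.

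The limits are 3 samples per treatment and differences of the Dock genes that did not pass without the block. Dock6 and Dock9 have the largest SE among the members without the block, and PH replicate 3 is both shallow and apart in Gm42418. With the block the SE was 0.10 for Dock6 and 0.07 for Dock9, whose values followed the id.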
